A study of Mus musculus with 40 samples.

Results

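The genes described here code for the machinery of ER-associated degradation (ERAD), the route by which misfolded proteins leave the endoplasmic reticulum (ER) and are destroyed. They are 32 of the 22417 genes of the deposited table, picked by gene symbol from a list of known ERAD components. The rule itself uses no measured value, but the list was chosen with earlier results of these data known. The cells were mouse embryonic fibroblasts of the genotype GADD34-/-, which lack the protein made by Ppp1r15a, a subunit that directs a phosphatase to eIF2α. They were left untreated or were given 1 uM thapsigargin, a blocker of the ER calcium pump that causes ER stress, for 0.5, 1, 2 or 4 h. Every group carries the deletion, so no comparison is between genotypes, and the labels do not say whether the cells are 1 line or several. Digitonin released the cytosol fraction, and dodecyl maltoside then took up what was left, which is called the ER fraction. Both fractions were sequenced as ribosome footprints, the stretches that ribosomes shield from a nuclease, and as mRNA depleted of ribosomal RNA, giving 20 groups of 2 libraries. The column of ER footprints at 0.5 h, replicate 2, is empty, which leaves 39 libraries. The labels do not say whether replicates were separate cultures, so the p-values reflect the spread between libraries, which may be technical.

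In ERAD, lectins and mannosidases of the ER lumen (the EDEM proteins, OS9 and ERLEC1) mark glycoproteins that fail to fold. A membrane complex around the ubiquitin ligase HRD1 (Syvn1) and its partner SEL1L passes them across the membrane with the derlins, while HERPUD1 helps to assemble that complex. Membrane-bound recruiters such as SELENOS and SELENOK draw in the ATPase p97 (Vcp), which with UFD1 and NPLOC4 pulls the ubiquitinated chain into the cytosol for the proteasome. Several of these genes are known targets of the unfolded protein response, in which XBP1 and ATF6 act through ER stress response elements in promoters.

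Such elements were looked for in the RefSeq promoters (build GRCm38.p6, 300 bases around the annotated start), which were at hand for 26 of the 32 members. The motif ERSE-II (ATTGG, 1 base of any kind, then CCACG) was present on either strand in 1 member, Herpud1, and the motif ERSE, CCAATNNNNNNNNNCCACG, in 2 members, Syvn1 and Derl3. Among 32851 promoters of the table, 12 (0.0365%) held ERSE-II and 39 (0.119%) held ERSE, and the 2 motifs together were in 51 (0.155%). Counted by gene, as the members are, ERSE-II was in 12 (0.0444%) of 27025 genes, ERSE in 37 (0.137%) and either in 49 (0.181%). The 3 promoters are shown because they hold the motifs. Footprints of Herpud1 and Syvn1 rose at 2 h in the ER fraction, as did those of Rnf185, whose promoter held neither motif. Derl3 was listed in no footprint library. A link between motif and rise was not tested. Capitals mark the match, which starts 52 bases before the annotated start in Herpud1 (chr8:94386179-94386478, plus strand), 44 bases before it in Syvn1 (chr19:6046326-6046625, plus strand) and, on the minus strand, 156 bases before it in Derl3 (chr10:75893148-75893447, plus strand). A match describes letters in this window and is no measurement of binding.
Herpud1: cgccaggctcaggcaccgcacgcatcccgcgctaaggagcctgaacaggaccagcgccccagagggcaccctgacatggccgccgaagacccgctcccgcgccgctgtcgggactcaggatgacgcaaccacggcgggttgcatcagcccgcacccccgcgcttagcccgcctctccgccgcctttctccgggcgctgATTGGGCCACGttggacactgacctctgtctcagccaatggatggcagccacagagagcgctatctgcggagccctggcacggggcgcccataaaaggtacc
Syvn1: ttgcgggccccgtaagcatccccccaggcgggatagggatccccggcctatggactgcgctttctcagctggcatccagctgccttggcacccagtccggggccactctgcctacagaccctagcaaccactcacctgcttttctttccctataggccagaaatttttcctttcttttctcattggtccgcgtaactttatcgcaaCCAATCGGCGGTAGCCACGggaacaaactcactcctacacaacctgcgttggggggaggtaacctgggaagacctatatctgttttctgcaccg
Derl3: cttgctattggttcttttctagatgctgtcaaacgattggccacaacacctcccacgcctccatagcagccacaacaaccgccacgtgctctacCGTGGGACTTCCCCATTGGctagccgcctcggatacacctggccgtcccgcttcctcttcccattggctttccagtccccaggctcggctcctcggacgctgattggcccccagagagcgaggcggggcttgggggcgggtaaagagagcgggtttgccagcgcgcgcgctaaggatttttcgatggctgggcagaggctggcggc

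Values are RPKM as the authors deposited them: reads scaled by transcript length and library total and, as read from the values, by a weight per fraction and time. Depth, in reads recovered from the values, spanned 56857 to 9604852 for footprints of the ER and 122242 to 5388188 for those of the cytosol. For mRNA it spanned 1502 to 162032 (ER) and 48215 to 315658 (cytosol). In cytosol footprints the untreated libraries were unequal, with 272300 reads in replicate 1 and 5388188 in replicate 2. Ppp1r15a, the deleted gene, was listed in 2 of 39 libraries, at 2.89 RPKM in untreated ER footprints replicate 2 and at 19.3 RPKM in cytosol footprints at 0.5 h, replicate 2. With no wild-type library, and no statement of which part of the gene was deleted, these values do not check the genotype. Of 8 fibroblast markers 6 were listed in all 19 footprint libraries and 1 in at most 1. Of the 13 leukocyte, epithelial and endothelial markers in the table each was listed in at most 1. Tubb3 and Nes, from the muscle and neural list of 5, were listed in all 19, and 2 others of that list in at most 1. In these bulk samples fewer cells of a type and less RNA per cell cannot be told apart.

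The column with no header beside the gene names marks 20 members TRUE and 12 FALSE, and what the mark means is not described. The members marked TRUE are Edem1, Edem2, Edem3, Os9, Erlec1, Syvn1, Sel1l, Herpud2, Derl1, Derl2, Derl3, Rnf5, Rnf139, Rnf185, Ubac2, Aup1, Ube2j1, Ube2j2, Vimp and Selk. The members marked FALSE are Herpud1, Faf2, Ubxn4, Ube2g2, Vcp, Ufd1l, Nploc4, Ngly1, Ube4a, Ube4b, Yod1 and Atxn3. The mark does not equal the place of the protein, since Herpud1, Faf2 and Ubxn4 code for proteins held in the ER membrane. Vimp, Selk and Ufd1l are older symbols of Selenos, Selenok and Ufd1. All 32 members were listed in at least 1 library, none in every library, and 6 (Herpud1, Os9, Vimp, Selk, Faf2 and Vcp) in all 19 footprint libraries. Derl3, a derlin, was listed in no footprint library. A blank was read as not measured, and footprint libraries listed members from 4 reads on, so a low gene can be missing because its library was shallow.

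In untreated cells the footprints of 5 of 18 members tested were higher in the ER and those of 2 higher in the cytosol (limma on log2(RPKM + 1), Benjamini-Hochberg adjusted p under 0.05 over all 5786 genes tested), where 14.6% of all genes were called, 7.88% higher and 6.69% lower. The 5 were Vimp, Os9, Sel1l, Derl2 and Faf2, and the 2 were Vcp and Ufd1l. The median log2 difference, ER minus cytosol, was 0.47 over these members and -0.79 over all genes tested. Among 9 members marked TRUE the median was 1.99 with 4 higher in the ER, against a median of 2.90 and 432 of 735 for all genes marked TRUE. Among 9 members marked FALSE it was -0.39 with 1 higher and 2 lower, against -0.86 with 24 higher and 374 lower of 5051 genes marked FALSE. As a check of the fractions, all 10 ER chaperones tested were higher in the ER (median 5.00), while of 13 abundant cytosolic proteins 3 were lower in the ER and none was higher.

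**Figure D1:**
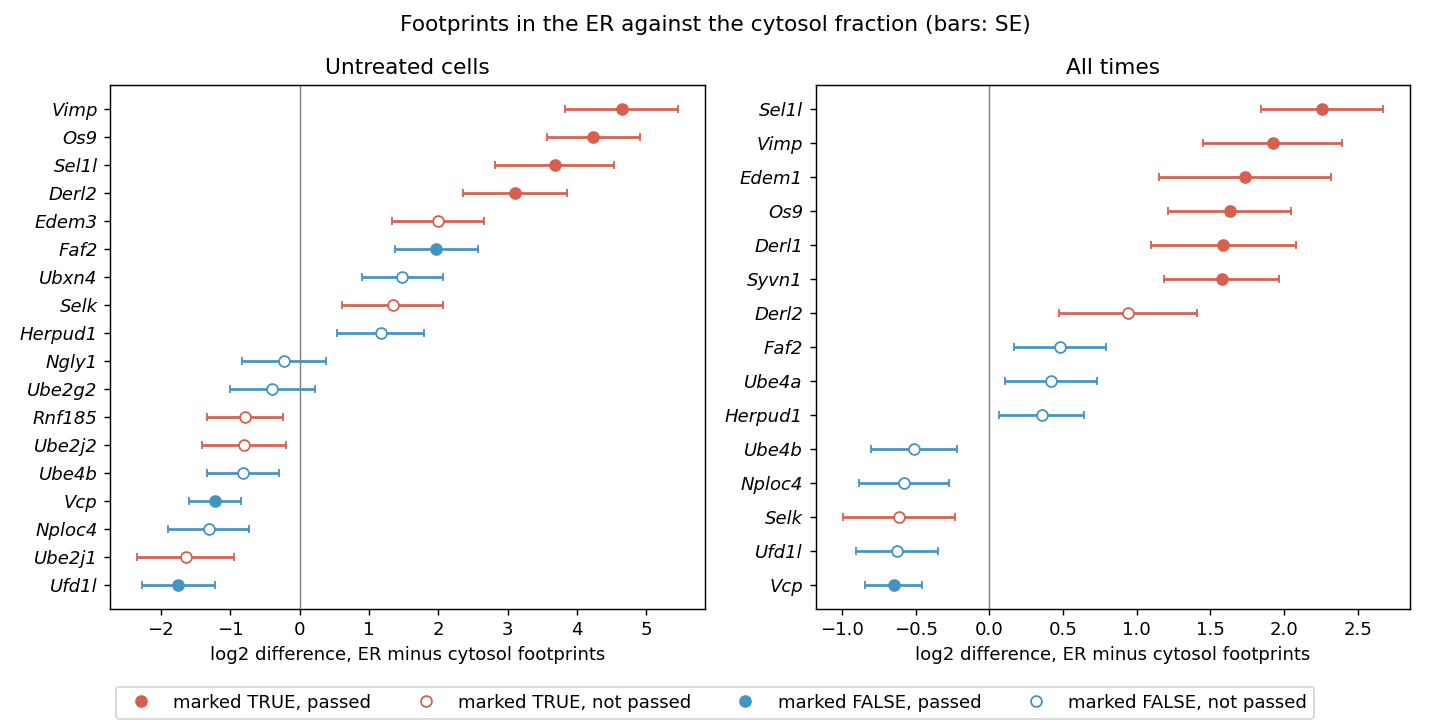
Log2 difference of footprints, ER minus cytosol, on the log2(RPKM + 1) scale for each member tested, in untreated cells and over all times; points are the fitted difference, bars its SE, colour the mark of the table, and filled points passed an adjusted p of 0.05. In untreated cells Vimp is farthest to the ER side at 4.64 and Ufd1l farthest to the cytosol side at -1.75.

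Os9, a lectin that reads trimmed glycans, had 45.9 and 56.0 RPKM in the 2 untreated ER libraries and 5.20 and 0.216 RPKM in the cytosol, the latter from 5 and 4 reads. The ER libraries lay above both cytosol libraries, a log2 difference of 4.24 ± 0.67 (SE, adjusted p = 0.0014, limma). Sel1l, the adaptor that holds HRD1 and the lectins together, had 37.8 and 48.8 RPKM in the ER against 8.67 and 0.225 in the cytosol, a log2 difference of 3.67 ± 0.86 (adjusted p = 0.010, limma). Derl2, a derlin of the channel, had 33.7 and 38.1 RPKM in the ER against 10.7 and 0.557, a log2 difference of 3.11 ± 0.75 (adjusted p = 0.014, limma). For all 3 genes replicate 2 of the cytosol held the lower value. Vimp, whose product SELENOS recruits p97, had 120 and 337 RPKM in the ER against 20.2 and 2.10 in the cytosol, a log2 difference of 4.64 ± 0.82 (adjusted p = 0.0021, limma). Faf2, which codes for a hairpin-anchored p97 adaptor, had 24.3 and 15.4 RPKM in the ER against 8.64 and 1.80 in the cytosol, a log2 difference of 1.97 ± 0.60 (adjusted p = 0.038, limma). It is a member marked FALSE whose untreated ER libraries were both above the cytosol ones.

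The cytosolic ATPase gene Vcp went the other way, with 196 and 127 RPKM in the ER against 370 and 365 in the cytosol, a log2 difference of -1.22 ± 0.38 (adjusted p = 0.043, limma). Its cofactor gene Ufd1l had 22.1 and 14.8 RPKM in the ER against 115 and 34.5 in the cytosol, a log2 difference of -1.75 ± 0.53 (adjusted p = 0.039, limma). With 1 untreated library left out, the Ufd1l difference ran from -2.60 to -0.89. Both calls depended on scaling, at adjusted p = 0.12 for Vcp and 0.066 for Ufd1l after median centring. Nploc4, the other cofactor, had 11.03 and 6.25 RPKM in the ER against 23.2 and 21.2 in the cytosol and did not pass, at -1.31 ± 0.58 (adjusted p = 0.13, limma).

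Some members marked TRUE did not follow the ER pattern. Ube2j1, an ubiquitin-conjugating enzyme held in the membrane by its C-terminal end, had 12.3 and 10.7 RPKM in the ER against 38.3 and 37.6 in the cytosol, so that the untreated groups did not overlap. Its log2 difference was -1.64 ± 0.70 and did not pass (adjusted p = 0.12, limma). Its relative Ube2j2 had 12.2 and 11.7 RPKM in the ER against 22.3 and 20.9 in the cytosol, at -0.80 ± 0.60 (adjusted p = 0.33, limma). Rnf185, a membrane ubiquitin ligase, had 3.49 and 6.65 RPKM in the ER against 11.2 and 7.30 in the cytosol, at -0.78 ± 0.55 (adjusted p = 0.29, limma). These 3 were singled out after their values were seen. Ube4a, which codes for a cytosolic chain-elongating ligase and is marked FALSE, had 8.46 and 7.03 RPKM in the untreated ER and only 0.324 RPKM, from 10 reads, in cytosol replicate 2, with a blank in replicate 1, and so was not tested.

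The differences in untreated cells, and the calls made from them, depended on which library was kept. With 1 of the 4 libraries left out in turn, the median log2 difference of the members tested ran from -0.25 to 2.27. Os9 and Vimp stayed higher in the ER in all 4 of these fits, at log2 differences of 3.06 to 5.41 and 3.25 to 6.03.

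Over all times, 15 members could be tested, and 6 were higher in the ER and 1 in the cytosol, where 40.1% of all genes were called, 8.33% higher and 31.8% lower. The 6 were Sel1l, Vimp, Edem1, Os9, Derl1 and Syvn1, all marked TRUE, with log2 differences from 1.58 to 2.26. Sel1l had the largest, 2.26 ± 0.42 (adjusted p = 0.00064, limma). Its ER libraries ran from 15.8 to 48.8 RPKM with a median of 22.7, and treated cytosol libraries from 2.38 to 23.2 RPKM. Syvn1, the gene of the HRD1 ligase, differed by 1.58 ± 0.39 (adjusted p = 0.0050, limma), Derl1 by 1.59 ± 0.49 (adjusted p = 0.016, limma) and Edem1, a mannosidase-like protein, by 1.73 ± 0.58 (adjusted p = 0.029, limma). Syvn1 was listed in all 9 ER libraries, at 7.47 to 41.3 RPKM, and in 7 cytosol libraries, none of them untreated, at 1.58 to 13.3 RPKM. Derl1 had 115 and 224 RPKM in the untreated ER, 63.7 at 0.5 h, 64.1 and 93.0 at 1 h, 106 and 77.7 at 2 h, and 106 and 71.0 at 4 h. In the cytosol it had 2.92 RPKM in the 1 untreated library that lists it, 29.6 and 226 at 0.5 h, 37.5 and 41.97 at 1 h, 28.5 and 56.8 at 2 h, and 31.6 and 30.5 at 4 h. Its highest treated cytosol value, at 0.5 h in replicate 2, was above every ER value. Edem1 had 17.003 and 27.98 RPKM in the untreated ER, 11.7 at 0.5 h, 12.4 and 10.8 at 1 h, and 20.5 and 5.85 at 2 h, with blanks at 4 h. In the cytosol it had 0.971 RPKM in untreated replicate 2, 3.38 and 11.1 at 0.5 h, 10.3 and 1.80 at 1 h, and 10.1 and 2.18 at 4 h, with blanks elsewhere, and the ranges of the fractions overlapped. Vcp was lower in the ER by 0.65 ± 0.19 on the log2 scale (log2 difference -0.65, adjusted p = 0.012, limma), a call that was lost at -0.25 (adjusted p = 0.35) with median centring and at -0.16 (adjusted p = 0.63) without the weight that the values carry per fraction. Leaving out any 1 of the 19 libraries left 6 to 8 members called.

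After thapsigargin, members changed in different directions in the ER fraction. Herpud1 rose at 2 and 4 h, Syvn1 and Rnf185 at 2 h and Ube4a at 4 h, and Os9 and Ube4b fell. Genes of the HRD1 complex did not move together. Sel1l and Derl1 were not called, and their treated libraries all lay below the untreated ones. At 2 h, 5 of 14 tested members passed, 3 higher and 2 lower, where 17.5% of all genes were called, 11.7% higher and 5.75% lower. At 4 h, 2 were higher and 1 lower of 13, where 27.6% of all genes were called, 21.5% higher and 6.07% lower. At 1 h 1 of 15 was lower, where 10.6% of all genes were called, 5.23% lower. At 0.5 h, with 1 treated library, 0 of 18 passed (0.49% of all genes), and 3 had an unadjusted p under 0.05. The median log2 change of the members tested was -0.41, -0.36, -0.13 and -0.38 at 0.5, 1, 2 and 4 h, against -0.19, -0.03, 0.19 and 0.44 for all genes tested. Members marked TRUE and FALSE had medians of -0.73 and 1.04 at 4 h, against -0.56 and 0.59 for all genes so marked.

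**Figure D2:**
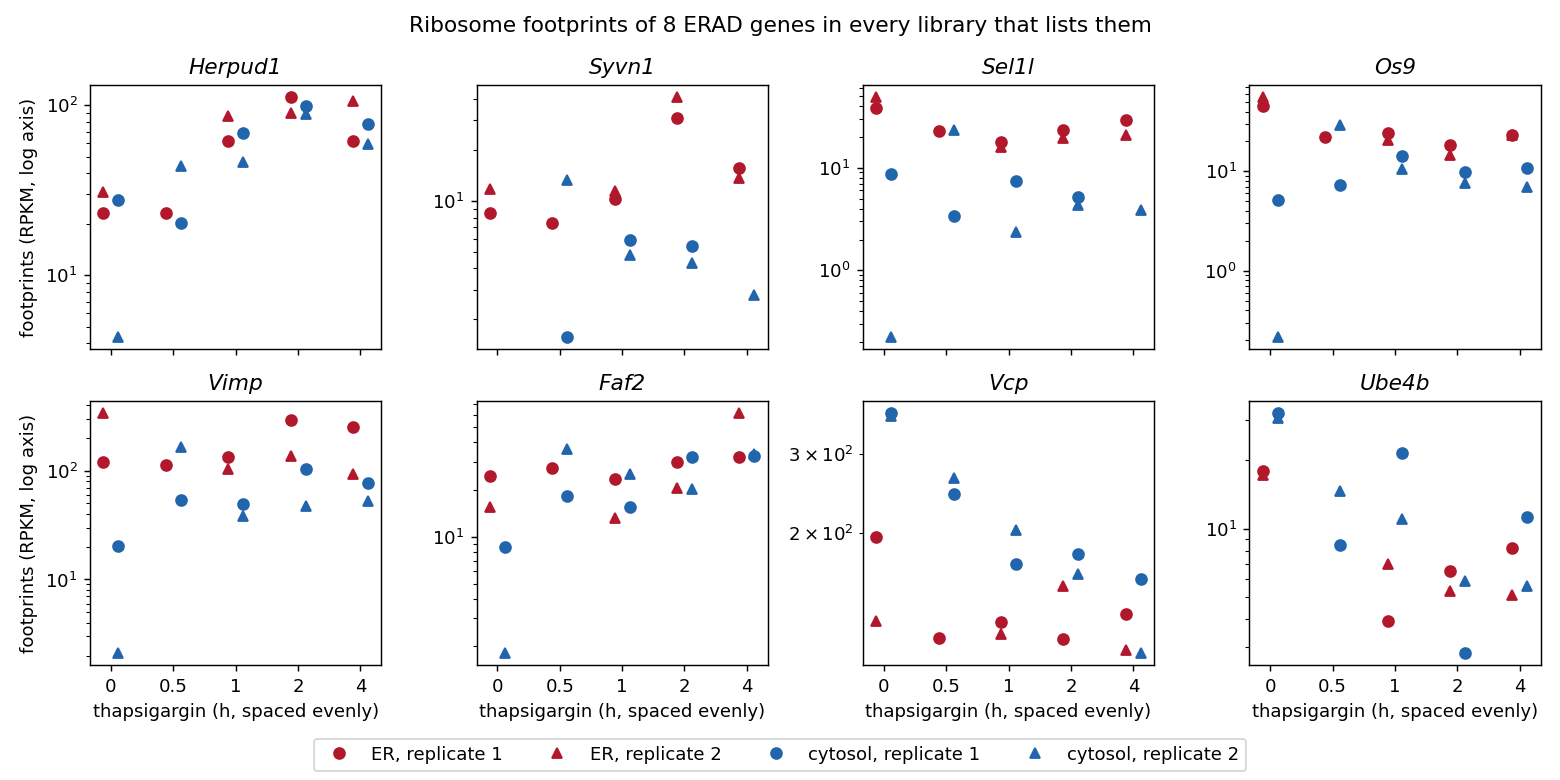
Footprints (RPKM, log axis) of 8 members against time of thapsigargin, with ER libraries in red, cytosol libraries in blue, circles for replicate 1 and triangles for replicate 2; missing points are blanks of the table. Herpud1 goes from 23.4 and 31.1 RPKM in the untreated ER to 112 and 90.1 at 2 h, and the untreated cytosol values of Os9, Vimp, Sel1l and Faf2 are lowest in replicate 2.

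Herpud1 rose in the ER at 2 times. Its footprints were 23.4 and 31.1 RPKM untreated, 23.4 at 0.5 h, 61.8 and 86.6 at 1 h, 112 and 90.1 at 2 h, and 61.7 and 106 at 4 h. All 6 libraries from 1 to 4 h lay above both untreated ones. The log2 change was 1.86 ± 0.45 at 2 h (adjusted p = 0.013, limma) and 1.55 ± 0.45 at 4 h (adjusted p = 0.022, limma). Syvn1 had 8.51 and 11.8 RPKM untreated and 31.1 and 41.3 at 2 h, a log2 change of 1.74 ± 0.42 (adjusted p = 0.013, limma). At 4 h it was at 15.8 and 13.6 RPKM, from 4 and 7 reads, and did not pass. Both values were above the untreated ones. With members listed from 4 reads on, replicate 1 could list no lower value, so its order against untreated shows no rise. Rnf185 had 3.49 and 6.65 RPKM untreated and 33.4 and 12.5 at 2 h, from 4 and 6 reads, a log2 change of 1.88 ± 0.54 (adjusted p = 0.034, limma). Members were listed from 4 reads on, so 33.4 RPKM was the lowest value that shallow library could list for Rnf185. Only 3 of the 7 treated ER libraries listed it, so this rise may reflect which libraries listed it. Ube4a had 8.46 and 7.03 RPKM untreated and 23.5 and 25.5 at 4 h, a log2 change of 1.55 ± 0.42 (adjusted p = 0.016, limma), and its 7 treated ER libraries, from 10.2 to 25.5 RPKM, all lay above the untreated pair.

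The members Os9 and Ube4b were lower in the ER. Os9 had 18.5 and 14.7 RPKM at 2 h against 45.9 and 56.0 untreated, a log2 change of -1.56 ± 0.42 (adjusted p = 0.021, limma). All 7 treated libraries, from 14.7 to 24.3 RPKM, lay below both untreated ones, and at 1 and 4 h it did not pass. Ube4b, which codes for a cytosolic chain-elongating ligase, had 17.9 and 17.2 RPKM untreated. It then had 3.93 and 6.98 RPKM at 1 h, 6.50 and 5.28 at 2 h and 8.23 and 5.08 at 4 h. The log2 changes were -1.56, -1.43 and -1.31 (adjusted p = 0.036, 0.036 and 0.039, limma). Its treated values rested on 4 to 13 reads, and all 3 calls were lost without the weight per fraction (adjusted p = 0.084, 0.074 and 0.063). Sel1l and Derl1 showed the same order of libraries as Os9, with 7 treated ER libraries at 15.8 to 29.3 RPKM for Sel1l and 63.7 to 106 RPKM for Derl1, below their untreated values of 37.8 and 48.8 RPKM and of 115 and 224 RPKM, and neither passed at any time. Of 10 members listed in all 9 ER libraries, 3 had every treated library below both untreated ones (17.2% of all such genes) and 1 had every treated library above (19.7%).

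The ER calls leaned on few libraries. Leaving out either 1 of the 2 untreated ER libraries left 0 members called at 1, 2 and 4 h; the 1 untreated library that remains is then assumed to vary like the other groups. The calls over all genes fell with them, at 1 h from 385 to 89 without replicate 1 and 109 without replicate 2, at 2 h from 569 to 190 and 230, and at 4 h from 873 to 300 and 405. The log2 changes at 2 h kept their size, at 1.66 and 2.06 for Herpud1 and -1.71 and -1.42 for Os9.

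In the cytosol fraction 1 of 14 members tested was higher at 0.5 h, where 3.45% of all genes were called, 3.41% higher. At 1 h 0 of 17 were called (1.43% of all genes). At 2 h 3 rose and 1 fell of 14, where 9.45% of all genes were called, 5.37% higher and 4.08% lower. At 4 h 2 rose and 1 fell of 14, where 7.91% of all genes were called, 4.58% higher and 3.32% lower. At 1 h 7 members had an unadjusted p under 0.05. The median log2 change of the members tested was 1.22, 0.63, 1.18 and 0.93 at the 4 times, against -0.03, -0.15, -0.14 and -0.12 for all genes tested. Members marked TRUE had a median of 1.69 at 4 h, against 1.40 for all genes marked TRUE. Members marked FALSE had -0.02, against -0.25 for all genes marked FALSE.

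**Figure D3:**
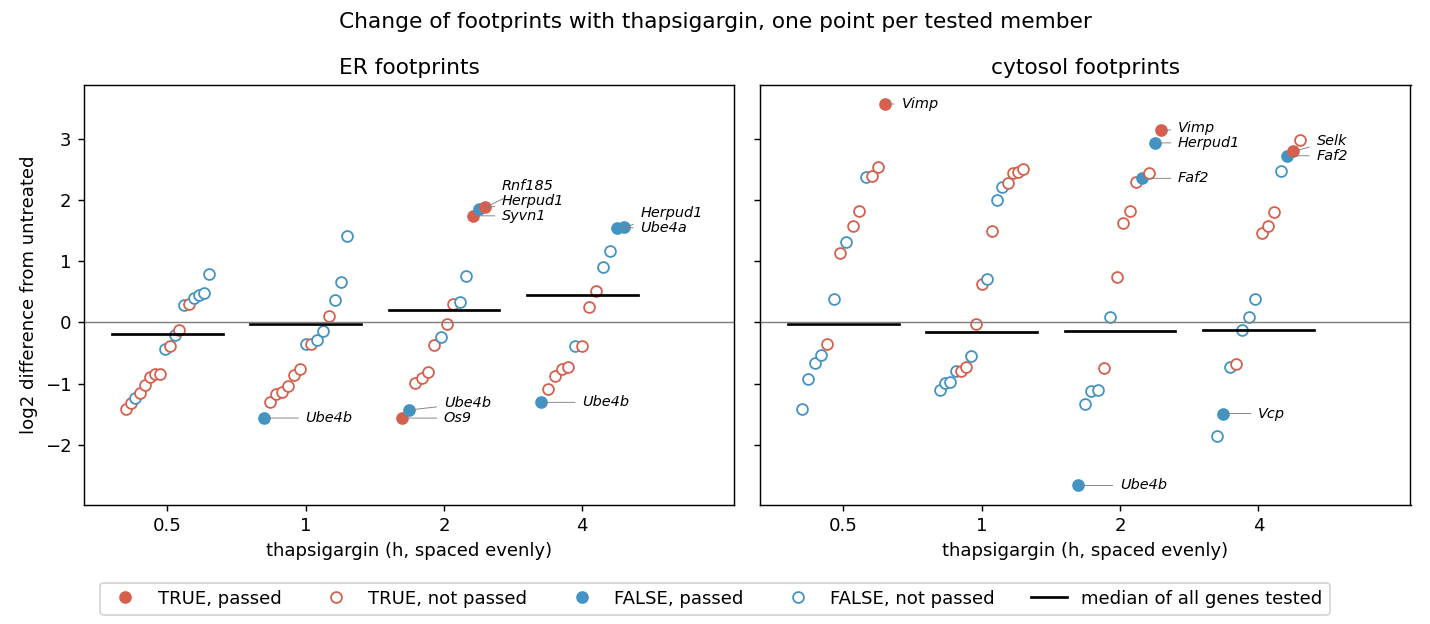
Log2 change of footprints from untreated on the log2(RPKM + 1) scale, 1 point per member tested at each time, in the ER (left) and the cytosol (right); colour gives the mark, filled and named points passed an adjusted p of 0.05, and black lines are medians of all genes tested. At 4 h the black line is at 0.44 in the ER and at -0.12 in the cytosol.

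The members that rose in the cytosol were Vimp at 0.5 and 2 h, Herpud1 at 2 h, Faf2 at 2 and 4 h, and Selk at 4 h. Vimp had 20.2 and 2.10 RPKM untreated, 54.2 and 166 at 0.5 h, 49.5 and 38.5 at 1 h, 104 and 47.2 at 2 h, and 76.4 and 52.2 at 4 h. Every treated library was above both untreated ones, with log2 changes of 3.57 ± 0.83 at 0.5 h (adjusted p = 0.042, limma) and 3.13 ± 0.83 at 2 h (adjusted p = 0.040, limma). Selk, whose product SELENOK is a small membrane selenoprotein, had 95.0 and 35.6 RPKM untreated, 456 and 210 at 0.5 h, 459 and 223 at 1 h, 472 and 218 at 2 h, and 797 and 210 at 4 h. Its log2 change passed at 4 h, at 2.79 ± 0.75 (adjusted p = 0.045, limma). Faf2 had 8.64 and 1.80 RPKM untreated, 18.3 and 36.5 at 0.5 h, 15.5 and 25.02 at 1 h, 32.2 and 20.2 at 2 h, and 32.7 and 33.8 at 4 h, with log2 changes of 2.35 ± 0.64 at 2 h (adjusted p = 0.043, limma) and 2.72 ± 0.64 at 4 h (adjusted p = 0.027, limma). Herpud1 had 27.9 and 4.35 RPKM untreated and 98.6 and 89.2 at 2 h, a log2 change of 2.93 ± 0.71 (adjusted p = 0.029, limma).

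Vcp and Ube4b fell in the cytosol. Vcp had 370 and 365 RPKM untreated, 244 and 266 at 0.5 h, 170 and 203 at 1 h, 179 and 161 at 2 h, and 158 and 108 at 4 h. All 8 treated libraries lay below both untreated ones, and the log2 change passed at 4 h, at -1.49 ± 0.41 (adjusted p = 0.048, limma). It was just past the threshold there, with adjusted p = 0.055 after median centring and 0.063 without the weight. Ube4b had 32.3 and 30.7 RPKM untreated and 2.82 to 21.5 RPKM treated, and passed at 2 h, where it had 2.82 and 5.86 RPKM, at -2.67 ± 0.58 (adjusted p = 0.021, limma). Nploc4, at 23.2 and 21.2 RPKM untreated, was listed in 7 treated libraries at 5.44 to 18.2 RPKM, and did not pass. Ufd1l, at 115 and 34.5 RPKM untreated, had 22.4 to 47.3 RPKM in the 8 treated libraries and was not called. In the ER it had 22.3 to 39.3 RPKM in the 6 treated libraries that list it, above 22.1 and 14.8 untreated, and was not called either. Of 10 members listed in all 10 cytosol libraries, 4 (Os9, Vimp, Selk and Faf2) had every treated library above both untreated ones (14.7% of all such genes) and 2 (Vcp and Ube4b) every treated library below (14.4%).

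The cytosol results turned on untreated replicate 2, the deepest cytosol library, in which the rising members were lowest. Without it 0 members passed at any of the 4 times, and the median of the members was 0.09, -0.30, -0.05 and 0.29. Over all genes the calls then fell from 185 to 0, 89 to 0, 470 to 46 and 364 to 22. Without untreated replicate 1, 8, 6, 9 and 6 members passed at 0.5, 1, 2 and 4 h, all higher, and over all genes 490, 398, 559 and 529 were called. Leaving out 1 treated cytosol library of the time tested also gave 0 at every time.

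The ratio of ER to cytosol footprints was then compared between cells treated for 1 to 4 h and untreated cells, as the difference of the 2 responses in 1 fit. Of 11 members tested 4 fell and 0 rose, where 9.65% of all genes were called (9.14% lower). The 4 were Vimp at -3.25 ± 0.82 (adjusted p = 0.011, limma), Os9 at -3.23 ± 0.66 (adjusted p = 0.0022, limma), Derl2 at -2.75 ± 0.86 (adjusted p = 0.046, limma) and Selk at -2.49 ± 0.75 (adjusted p = 0.035, limma), all marked TRUE. The median over 5 members marked TRUE was -2.75, against -2.72 over 551 genes marked TRUE of which 320 were lower. For 6 members marked FALSE it was 0.63 with none called, against 0.53 over 3137 genes. All 10 ER chaperones of the fraction check also fell in this ratio (median -3.90), while of 13 abundant cytosolic proteins 0 were called (median 0.38). What part a change of the fractions has in the members' values was not tested. Sel1l, the fifth member marked TRUE, had -1.66 ± 0.77 and did not pass (adjusted p = 0.24, limma), and Vcp had 0.86 ± 0.48 (adjusted p = 0.35, limma).

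**Figure D4:**
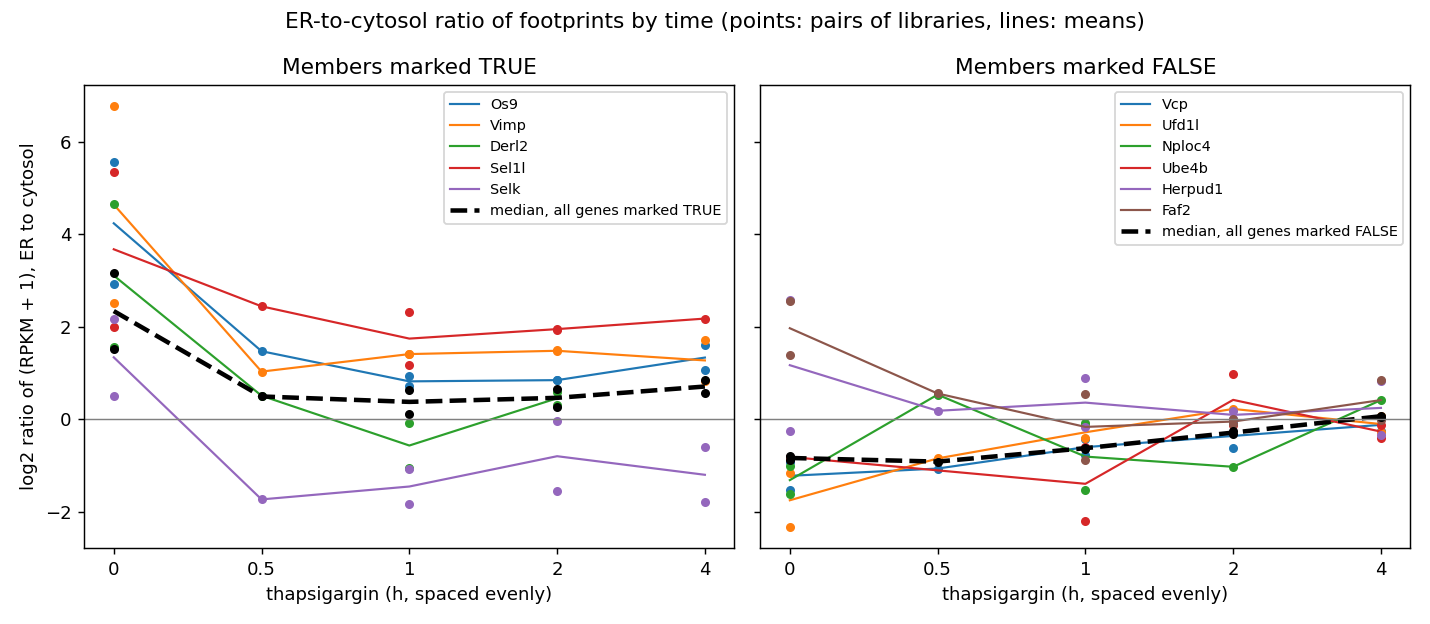
Log2 ratio of (RPKM + 1) in ER over cytosol footprints for members marked TRUE (left) and FALSE (right) at each time; points are pairs of libraries with the same number, solid lines their means, and the dashed line the median of all genes with that mark. The median of all genes marked TRUE is 1.52 and 3.16 in the 2 untreated pairs and between 0.12 and 0.86 in treated ones.

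For Os9 the log2 ratio was 2.92 and 5.55 in the untreated pairs and 0.71 to 1.61 in the 7 treated pairs, so that the groups did not overlap. For Vimp it was 2.51 and 6.77 untreated and 0.83 to 1.72 treated. Selk moved from 0.50 and 2.18 to values between -1.84 and -0.04, below 0 in every treated pair. Derl2 was at 1.56 and 4.65 untreated and between -1.04 and 0.60 in the 5 treated pairs that list it. In replicate 1 alone, the pair with the lower untreated ratio, the order was the same for all 4. The calls depended on which untreated cytosol library was kept. Without untreated cytosol replicate 2 the median over the members was -0.17, against -1.66 in the main fit. Over all fits with 1 library left out it ran from -2.69 to -0.17. Without the weight per fraction the calls of Derl2 (adjusted p = 0.088) and Selk (adjusted p = 0.076) were lost.

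Few members could be tested in mRNA. Reads for a listed member had a maximum of 71 in replicate 1 and of 29 in replicate 2. Members were listed from 4 reads on in replicate 1 and from 1 read on in replicate 2. In the ER, 0 of 6 tested members changed between untreated cells and 1 to 4 h (0% of 2091 genes called), with none at an unadjusted p under 0.05. In the cytosol, 0 of 3 changed (0% of 2509 genes), and 1, Vcp, had an unadjusted p under 0.05. Vcp mRNA in the cytosol was 59.5 and 101.7 RPKM untreated and 9.85 to 39.96 RPKM in the 8 treated libraries, all below both, a log2 change over 1 to 4 h of -1.90 ± 0.56 that did not pass (adjusted p = 0.21, limma). Herpud1 mRNA in the ER was 11.5 and 12.1 RPKM untreated, from 5 and 2 reads, and 8.75 to 66.8 RPKM from 1 to 4 h, a log2 change of 0.71 ± 0.72. In the cytosol Herpud1 mRNA was blank in both untreated libraries and so was not tested. It was listed in 7 of the 8 treated cytosol libraries, at 9.37 to 60.4 RPKM from 2 to 26 reads. Translational efficiency, the footprint change less the mRNA change in 1 fit, gave 0 of 4 members in the ER (0.99% of all genes) and 0 of 3 in the cytosol (0.277%), none at an unadjusted p under 0.05. These fits and those of mRNA left out the replicate number. Same-numbered mRNA libraries deviated from their group means together (median correlation 0.65). With the replicate number in the fit 0 members were called as well, while over all genes more were called in mRNA and in ER translational efficiency.

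Between the fractions 1 of 8 members tested passed in mRNA, Sel1l, where 3.81% of all genes were called, 3.77% higher. Sel1l mRNA had 10.4 to 31.6 RPKM in the 6 ER libraries that list it and 1.23 to 5.48 RPKM in the 6 cytosol libraries that list it, which did not overlap, and the log2 difference was 2.19 ± 0.49 (adjusted p = 0.0020, limma). The ER values rested on 5 to 26 reads and the cytosol values on 1 to 7. The lowest cytosol values, 1.23 and 1.34 RPKM, came from 1 read each, in replicate 2. Footprints of Sel1l had the same direction. Sel1l was listed in exactly the minimum of 6 libraries of each fraction, so leaving out one of those 12 removes it from the test.

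Edem2 and Edem3, mannosidases of the lumen, had 3.84 and 4.61 RPKM and 8.51 and 7.76 RPKM in the untreated ER and were listed in no treated ER library. Erlec1, a lectin like Os9, had 17.4 and 16.5 RPKM in the untreated ER and 4.77 to 7.89 RPKM in the 3 treated ER libraries that list it. Ubxn4, a p97 adaptor, had 34.9 and 31.5 RPKM untreated and 6.59 to 13.6 RPKM in the 3 treated ER libraries that list it. In both genes the treated libraries that list them lay below the untreated ones, but blanks left neither tested past 0.5 h in the ER. Aup1, a membrane protein that binds conjugating enzymes, had 21.7 and 32.01 RPKM in the untreated ER, and Ubac2, a rhomboid-like membrane protein, had 10.1 and 12.1. Herpud2, Rnf139, Ngly1, Yod1 and Atxn3 stayed at or below 8.81 RPKM in untreated footprints wherever they were listed. Rnf5 was listed in 3 ER and 9 cytosol footprint libraries, at 5.38 to 21.1 and 2.77 to 36.6 RPKM, and Ube2g2 in 3 and 7, at 10.8 to 25.3 and 8.86 to 31.96 RPKM.

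Of the other ERAD genes, 42 are in the table. At 4 h in ER footprints 2 of 13 tested rose and 0 fell, where 27.6% of all genes were called. In ER footprints Tmub2 rose at 1, 2 and 4 h by 1.93, 1.62 and 2.02 on the log2 scale (adjusted p = 0.022, 0.034 and 0.0084, limma). Uggt1, the glucosyltransferase that senses folding, fell by 1.73 at 2 h (adjusted p = 0.019, limma). In the cytosol at 2 h 0 of 16 tested rose and 2 fell (5.37% and 4.08% of all genes), Rad23b (log2 change -2.56) and Ubqln1 (log2 change -2.36). In untreated cells 4 of 18 were higher in the ER (7.88% of all genes), among them Uggt1 (log2 difference 4.17), and March6, a membrane ligase (3.79). Both fell in the ER to cytosol ratio, by 2.87 and 2.61. Of 5 factors of the unfolded protein response tested in the cytosol at 4 h, 3 were higher (4.58% of all genes). They were Ddit3 by 5.64, Atf4 by 3.44 and Xbp1 by 3.15 on the log2 scale. For these genes no fit with a library left out is given. Hspa5, the chaperone BiP, rose in the ER at 2 and 4 h by 1.35 and 1.13 and fell in the ratio by 3.39.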

How the data were processed

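Ribosome footprints and mRNA of the ER and cytosol fractions were taken as the RPKM values that the authors deposited in 1 table, with no unit in its header. The unit was read from the values, which were whole reads for each of the 13206 genes that 2 or more libraries list (tolerance 2e-05 plus a 1e-07 share) times 1 factor per library over a length. Reads were recovered only to state depth, and no count test was run on them. Per the submitters' processing notes Bowtie was used, with no version, and the build hg19, a human build, although the genes are mouse genes; the counter and annotation are not given in the sources used here. As inferred from the values, the deposited RPKM hold a factor for the fraction and time, for example 46.7% to the ER in untreated footprints replicate 1 and 38.3% at 1 h, with the rest to the cytosol; for cytosol footprints at 0.5 h, replicate 2, none could be given.

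Genes averaging 1 RPKM or more in a fit (blanks as 0 in that mean) were tested with limma 3.58.1 (R 4.3.3, trend) on log2(RPKM + 1), with blanks left out and p-values adjusted over all genes tested at a threshold of 0.05. Fold changes on this scale understate those of low genes. Pooled fits needed at least 4 of the 6 treated libraries, and tests between fractions over all times 6 libraries of each. The fit was tested on simulated data. Alternatives were a pseudocount of 0.1, no filter, blanks as 0, median centring, a replicate block, and leaving out each library; the fit without the weight was added after seeing the data. Promoters are those of RefSeq. Hydropathy, planned for proteins, was not computed, as no protein table was used here. The rule for named genes asked for values per library for every called member and for Herpud1, Sel1l, Syvn1, Derl1, Vcp, Ufd1l and Nploc4, with the rest by range; several of these are also given by range where no call was made or where groups are pooled over times. Members and lists were chosen with earlier results of these data known.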

Additional observations from a re-analysis of the deposited data

Results flagged for a closer look

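For 4 members the response to thapsigargin of footprints in the ER differed from that in the cytosol, by the interaction of fraction and treatment in limma (1 to 4 h against untreated, log2 of the ER response minus the cytosol response). The difference was -3.25 for Vimp, -3.23 for Os9, -2.75 for Derl2 and -2.49 for Selk. These were 4 of 11 members tested, where 9.14% of all genes were called lower. All 4 are marked TRUE, and genes marked TRUE fell in this ratio in general, so the fall is not particular to these members. In the untreated cytosol libraries Os9 had 5 and 4 reads, Derl2 4 and 4, Vimp 6 and 12 and Selk 14 in replicate 1 and more in replicate 2. Footprints of Os9 in the ER also fell at 2 h.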

How the results depend on the processing

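Counts of members called are given where they moved beyond 1.5 times; the cause was not tested. Of the 36 calls on 15 members, all 36 held with a pseudocount of 0.1, with no filter and with the replicate block, 31 with median centring, 26 without the weight per fraction and 10 with blanks read as 0, and none reversed. With blanks as 0 the counts were 2 at 0.5 h and 3 at 1 h in ER footprints. In cytosol footprints they were 2, 1, 1 and 1 at 0.5, 1, 2 and 4 h. They were 1 for ER translational efficiency, 0 for mRNA between fractions and 2 for the change of the ER to cytosol ratio. Median centring gave 2 in ER footprints at 1 h and 0 in cytosol footprints at 0.5 h. Without the weight per fraction 0 were called in cytosol footprints at 0.5 h, 2 in mRNA between fractions and 2 in the ratio.

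With 2 samples a group and no label saying what a number marks, replicate numbers were not taken to pair the samples. Same-numbered footprint libraries correlated, in their deviations from the group means, at -0.19 to 0.63 (median 0.28). The mRNA libraries correlated in the same way at 0.35 to 0.74 (median 0.65). With the replicate block 4 members were called in ER footprints at 1 h, and 2, 1 and 5 in cytosol footprints at 0.5, 1 and 4 h.

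Leaving out 1 library gave 0 to 0 calls at 0.5 h, 0 to 0 at 1 h, 0 to 2 at 2 h and 0 to 1 at 4 h in ER footprints. In cytosol footprints it gave 0 to 8, 0 to 6, 0 to 9 and 0 to 6. Between fractions it gave 2 to 12 in untreated cells, 6 to 8 over all times and 0 to 1 in mRNA, and 1 to 9 for the ratio. Of 301 repeats of the called members 205 kept their call.

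Over all genes the counts with the block went from 24 to 132, 385 to 755 and 569 to 885 in ER footprints at 0.5, 1 and 2 h, and from 185 to 315, 89 to 207, 470 to 928 and 364 to 779 in cytosol footprints. In mRNA the block gave 14 in the ER and 13 in the cytosol where the main fits gave 0, in ER translational efficiency 47 for 15, and between fractions 1641 for 843 in untreated cells and 176 for 107 in mRNA. With blanks as 0 they went from 24 to 440 and 385 to 639 in ER footprints at 0.5 and 1 h, from 185 to 88, 470 to 218 and 364 to 228 in cytosol footprints at 0.5, 2 and 4 h, from 15 to 76 and 6 to 13 in translational efficiency, from 843 to 530 in untreated cells and from 107 to 22 in mRNA between fractions. Median centring gave 59 for 185 and 42 for 89 in cytosol footprints at 0.5 and 1 h, 2 for 6 in cytosol translational efficiency and 1219 for 1889 between fractions over all times. Without the weight these were 58, 46 and 1034 for the footprints, and mRNA gave 57 for 0 in the cytosol and 514 for 107 between fractions. Leaving out 1 library gave 1 to 1, 89 to 225, 190 to 390 and 300 to 816 calls over all genes in ER footprints at the 4 times, 0 to 490, 0 to 398, 42 to 559 and 22 to 529 in cytosol footprints, 200 to 1061 between fractions in untreated cells, 83 to 548 for the ratio (main 356), 0 to 16 and 0 to 34 in mRNA, and 0 to 110 and 1 to 15 in translational efficiency of the ER and cytosol. The share of higher calls over all genes went from 54.2% to 71.4% with centring and 96.9% without the weight in ER footprints at 0.5 h, from 50.6% to 61.6% and 75.9% at 1 h, from 67.1% to 79.0% without the weight at 2 h and from 78.0% to 64.6% with centring at 4 h. Between fractions it went from 54.1% to 80.0% and 79.7% in untreated cells and from 20.8% to 61.1% and 71.1% over all times, and with centring in ER translational efficiency 9 of 12 calls were higher against 3 of 15. With blanks as 0 it fell to 4.55%, 13.8%, 19.7% and 22.7% in ER footprints at the 4 times and to 9.87% between fractions over all times, and rose to 74.8% and 74.1% in cytosol footprints at 2 and 4 h and to 82.3% in untreated cells. With the block it was 38.6% in the ER at 0.5 h, 45.2% in the cytosol at 2 and 4 h and 31.1% between fractions in untreated cells.

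Depth limits the low members most, many of whose values rest on 4 to 10 reads.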
